A study of Mus musculus with 16 samples.

Results

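Expression of 10 genes of the neuropilin, plexin and semaphorin families was followed in stem and progenitor cells of mice with and without the upstream regulatory element (URE) of the PU.1 gene *Spi1*. The 10 genes are the co-receptors *Nrp1* and *Nrp2*, the plexin receptors *Plxna1*, *Plxnb2*, *Plxnc1* and *Plxnd1*, and the semaphorin ligands *Sema4a*, *Sema4b*, *Sema4d* and *Sema7a*. They were selected on their measured values as well as on their family, out of 54347 genes in the table and 31 genes of these families (2 neuropilins, 9 plexins and 20 semaphorins). The URE versus WT difference in each cell type was in view at that choice, and *Nrp1* was chosen for its opposite direction in LSKs and GMPs. The genotype values of the 10 genes are therefore given as a description without a p-value, and how many of them passed the thresholds stands beside the share of all genes without being read as evidence. The adjusted p is given for the GMP versus LSK difference of the genes other than *Nrp1* and for family genes outside the 10. The GMP versus LSK contrasts use the same libraries as the genotype contrasts, so that these tests are not independent of the choice.

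RNA was sequenced from sorted LSKs (Lin-Sca-1+c-Kit+ cells, which hold stem cells and multipotent progenitors) and GMPs (Lin-Sca-1-c-Kit+ cells positive for the Fc gamma receptors, the granulocyte and monocyte progenitors). Each cell type was taken from 4 WT mice and 4 URE mice (UREd/d, homozygous for the deletion of the enhancer), which gave 4 groups and 16 libraries. The mice were littermates on a C57BL/6 background and were 8 to 12 weeks old. The deletion is in the germline, so that every cell of a URE mouse carries it, and both sorted cell types were pre-enriched for c-Kit.

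Semaphorins are secreted or membrane-bound signals that were first known from axon guidance and also act on immune and vascular cells. Plexins are their transmembrane receptors and act on small GTPases, the integrins and the cytoskeleton. Most secreted semaphorins of class 3 need a neuropilin beside the plexin, whereas class 4 semaphorins bind plexins directly, and neuropilins also bind members of the VEGF family.

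Total counts ranged from 20028302 to 29128858 per library. *Spi1* lay between 69.5 and 165.6 CPM (counts scaled to library size and composition) in WT LSKs, between 1.13 and 4.44 in URE LSKs, between 84.8 and 181.4 in WT GMPs and between 15.6 and 28.6 in URE GMPs, so that all libraries matched their genotype label. *Kit* was found in every library at 256.2 CPM or more, *Ly6a* (Sca-1) lay at 35.1 to 121.9 CPM in LSKs and at 0.564 to 2.88 in GMPs, and *Mpo* and *Fcgr3* were each higher in every GMP library than in any LSK library. Replicates 1 and 4 were the pair of libraries nearest to each other in every group, although in URE GMPs replicate 2 was nearer to replicate 4 than to replicate 3. Of 15935 genes, 12.3% were higher in replicates 1 and 4 than in replicates 2 and 3 in all 4 groups, and *Plxna1*, *Plxnb2*, *Sema4a* and *Sema4d* were among them. The gene-wise difference between these replicate pairs had a Spearman correlation of 0.30 with exon length and of 0.34 with GC content over 15923 genes, which are not independent replicates. Transcripts of Y-linked genes were found in 1 of 4 URE and 3 of 4 WT libraries of each cell type. Genotype differences are therefore also given within replicates 1 and 4, where the libraries of both genotypes were alike in this respect, and within replicates 2 and 3, where they were not and genotype and sex cannot be told apart. In bulk RNA, fewer cells of a kind and less RNA per cell cannot be told apart.

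*Nrp1* encodes a co-receptor for secreted semaphorins and VEGF (chr8:128358604-128503363 on GRCm38, plus strand). In WT LSKs it was low, at 2.63, 2.62, 1.84 and 1.13 CPM in replicates 1 to 4. In URE LSKs it measured 30.5, 9.18, 2.78 and 19.1 CPM. Each URE library was thus above each WT library, but replicate 3 exceeded the highest WT library by little, and the URE libraries differed among themselves (SD 12.1 CPM) more than those of the other groups (SD 0.719 to 6.22 CPM). On the log2 scale the URE versus WT difference in LSKs was 2.86 ± 0.66 (SE, edgeR, n = 4 per group), a 7.28-fold higher level in URE, with 3.67 in replicates 1 and 4 and 1.40 in replicates 2 and 3.

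In GMPs the order of the genotypes was the opposite. *Nrp1* measured 30.3, 19.9, 17.3 and 17.2 CPM in WT GMPs and 8.87, 10.5, 2.87 and 5.69 CPM in URE GMPs. Again the groups did not overlap, with every URE library below every WT library. The log2 difference was -1.62 ± 0.39 (SE), a 3.07-fold lower level in URE, and it was -1.72 in replicates 1 and 4 and -1.52 in replicates 2 and 3. The genotype difference in GMPs minus that in LSKs was -4.50 ± 0.81 (SE) on the log2 scale over all 16 libraries, with -5.41 in replicates 1 and 4 and -2.92 in replicates 2 and 3. Since *Nrp1* was chosen for this pattern, these values describe it and do not test it.

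Seen between cell types, *Nrp1* was 10.2-fold higher in GMPs than in LSKs of WT mice (log2 difference 3.35 ± 0.35, SE), and all 4 WT GMP libraries were above all 4 WT LSK libraries. In URE mice the GMP versus LSK difference was -1.19 ± 0.66 (SE) and the groups overlapped. It was -1.75 in replicates 1 and 4 and 0.14 in replicates 2 and 3, and in replicate 1 the level of URE LSKs reached that of WT GMPs. The second neuropilin, *Nrp2* (chr1:62703285-62818695, plus strand), which serves other class 3 semaphorins and VEGF-C, stayed below 4 CPM throughout. It measured 0.508 to 1.17 CPM in WT LSKs, 0.0994 to 2.18 in URE LSKs, 0.44 to 3.38 in WT GMPs and 0.154 to 0.522 in URE GMPs. The lowest URE LSK libraries rested on 3 counts each, *Nrp2* did not pass the filter on low counts in the GMP comparison, and its genotype difference in LSKs was 0.18 ± 0.87 (SE, log2), with 0.22 in replicates 1 and 4, 0.092 in replicates 2 and 3 and -0.54 in the fit that takes the replicate number as a block. In GMPs no URE library was above the WT library of its number. Within replicates 1 and 4, where *Nrp2* passed the filter, the log2 difference in GMPs was -2.71. Its GMP versus LSK difference in WT mice was 1.04 ± 0.61 (SE) and did not pass the quasi-likelihood test of edgeR (adjusted p = 0.24, Benjamini-Hochberg adjusted over all genes).

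**Figure D1:**
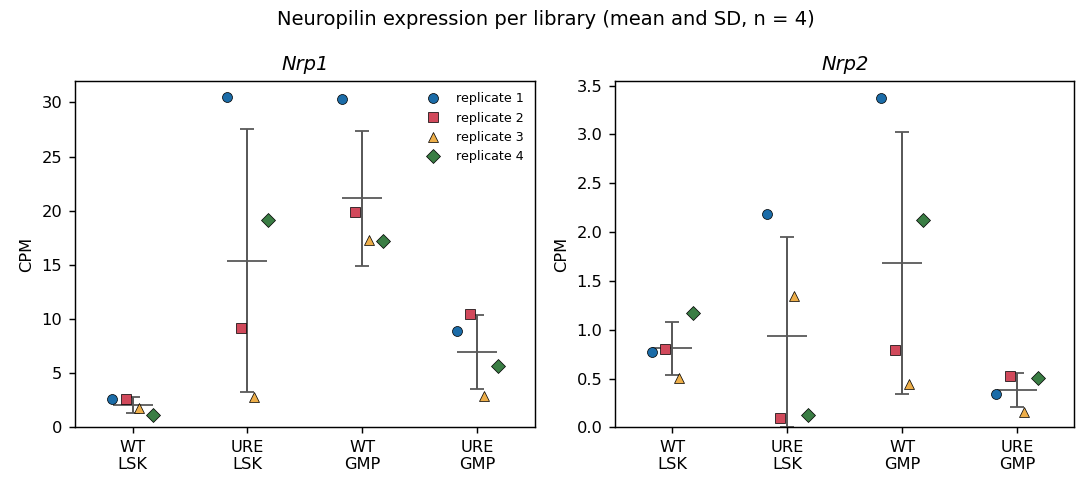
CPM of *Nrp1* and *Nrp2* (vertical axes) in each library of the 4 groups (horizontal axis), with a symbol for each replicate number and bars for the mean and SD (n = 4), cut at 0 where the SD exceeds the mean. *Nrp1* lies at 1.13 to 2.63 CPM in WT LSKs and at 17.2 to 30.3 CPM in WT GMPs, while URE LSKs spread from 2.78 to 30.5 CPM and URE GMPs from 2.87 to 10.5 CPM.

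*Plxnd1* (chr6:115954811-115995005, minus strand), the receptor of SEMA3E and also of SEMA4A, was lower in URE mice in both cell types. In WT LSKs it measured 40.4, 17.6, 9.22 and 31.6 CPM, and in URE LSKs 4.25, 7.76, 3.79 and 5.81 CPM. In WT GMPs it measured 36.4, 16.5, 9.82 and 18.8 CPM, and in URE GMPs 5.93, 7.0, 1.38 and 5.35 CPM. The highest URE library was below the lowest WT library in each cell type, although the WT libraries alone spread over a wide range in which replicate 3 was lowest. The log2 difference was -2.22 ± 0.46 (SE) in LSKs, a 4.65-fold lower level, and -2.07 ± 0.53 in GMPs, a 4.19-fold lower level. Within replicates 1 and 4 it was -2.87 in LSKs and -2.30 in GMPs, and within replicates 2 and 3 -1.23 and -1.69. *Plxnd1* did not change with cell type at the threshold: the GMP versus LSK difference was -0.29 ± 0.50 (adjusted p = 0.726, edgeR) in WT mice and -0.18 ± 0.47 (adjusted p = 0.821) in URE mice.

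*Plxnc1* (chr10:94790866-94944835, minus strand), the receptor of SEMA7A, varied little between replicates outside URE GMPs. WT LSKs measured 38.3, 53.8, 50.3 and 41.0 CPM and URE LSKs 30.1, 30.3, 30.7 and 27.2 CPM. WT GMPs measured 26.9, 29.9, 24.6 and 31.9 CPM and URE GMPs 10.1, 3.55, 17.1 and 4.67 CPM. The genotypes did not overlap in either cell type. The log2 difference was -0.66 ± 0.18 (SE) in LSKs, a 1.58-fold lower level, and -1.67 ± 0.47 in GMPs, a 3.18-fold lower level. Within replicates 1 and 4 it was -0.50 in LSKs and -2.0 in GMPs, and within replicates 2 and 3 -0.80 and -1.40. Its level was also lower in GMPs than in LSKs of both genotypes, by a log2 difference of -0.71 ± 0.18 in WT mice (adjusted p = 0.0176) and of -1.77 ± 0.46 in URE mice (adjusted p = 0.0226, edgeR for both). The libraries compared here are those of the genotype differences in view at the choice, so that these tests are not independent of it. In WT mice this call was lost without WT LSK replicate 2 (adjusted p = 0.0567), without a filter on low counts (0.0529), in 1 fit of all 16 libraries (0.155) and within replicates 1 and 4 alone (-0.43, adjusted p = 0.21). In URE mice it was lost without URE GMP replicate 4 (adjusted p = 0.0627), and within replicates 2 and 3 alone neither call was made (adjusted p = 0.0587 in WT and 0.24 in URE mice).

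The RefSeq promoters of *Plxnc1*, *Plxnd1* and *Nrp1* are printed because the WT and URE libraries of these genes did not overlap in either cell type, and PU.1 is an ETS factor whose sites are built around the letters GAGGAA. These are the 250 bases before the annotated start in the GRCm38.p6 table, read on the strand of the gene, with GAGGAA or its reverse complement TTCCTC in capitals. They lie at chr10:94944846-94945095 (minus strand), chr6:115995006-115995255 (minus strand) and chr8:128358823-128359072 (plus strand), and none overlaps an exon of its gene in GENCODE M21. The *Nrp1* window lies within the GENCODE gene, after its outermost start at 128358604.
Plxnc1: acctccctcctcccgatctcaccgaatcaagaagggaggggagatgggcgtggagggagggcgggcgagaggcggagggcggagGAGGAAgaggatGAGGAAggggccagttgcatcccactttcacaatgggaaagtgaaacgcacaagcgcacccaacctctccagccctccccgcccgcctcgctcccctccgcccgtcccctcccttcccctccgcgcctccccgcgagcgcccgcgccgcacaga
Plxnd1: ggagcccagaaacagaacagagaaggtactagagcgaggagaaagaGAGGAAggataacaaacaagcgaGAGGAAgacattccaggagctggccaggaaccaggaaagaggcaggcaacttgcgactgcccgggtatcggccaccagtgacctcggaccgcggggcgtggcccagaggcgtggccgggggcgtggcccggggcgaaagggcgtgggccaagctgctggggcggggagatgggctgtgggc
Nrp1: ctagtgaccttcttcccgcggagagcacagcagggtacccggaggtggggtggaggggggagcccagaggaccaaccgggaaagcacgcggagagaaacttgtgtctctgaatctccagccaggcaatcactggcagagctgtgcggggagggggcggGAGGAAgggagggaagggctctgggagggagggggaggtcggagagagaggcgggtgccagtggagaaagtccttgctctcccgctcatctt
*Plxnc1* and *Plxnd1* each had 2 matches in this window and *Nrp1* had 1.

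Promoter entries were found for 9 of the 10 genes, 16 entries in all, each of 250 bases before and 50 bases after a start, and *Plxna1* had no entry. The letters GAGGAA were found on either strand in 7 of the 16 entries, against 28.3% of 32851 mouse promoters of the same length. These entries belonged to 5 of the 9 genes. That number has no share of all genes beside it, since a gene with several entries has more places for a match. The letters TGTGGT, the core of RUNX sites, or their reverse complement ACCACA were found in 1 entry, of *Sema4d*, against 16.8% of all promoters. A match describes the letters in this window and is not evidence of binding.

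*Plxnb2* (chr15:89155549-89180788, minus strand), a receptor of class 4 semaphorins, was among the higher expressed genes of the group and did not separate the genotypes in LSKs. WT LSKs measured 68.4, 25.2, 31.3 and 38.6 CPM and URE LSKs 55.5, 19.9, 33.8 and 59.2 CPM, a log2 difference of 0.005 ± 0.40 (SE). In GMPs it measured 64.8, 16.9, 16.3 and 24.4 CPM in WT and 22.4, 11.1, 10.0 and 12.9 CPM in URE mice. The groups overlapped in GMPs, where replicate 1 of either genotype was the highest, but each URE library was below the WT library of the same number, and the log2 difference was -1.13 ± 0.48, which became -0.45 without WT GMP replicate 1. Within replicates 1 and 4 it was 0.067 in LSKs and -1.35 in GMPs, and within replicates 2 and 3 -0.11 and -0.68. Between cell types, *Plxnb2* was 3.08-fold lower in GMPs than in LSKs of URE mice (log2 difference -1.62 ± 0.40, adjusted p = 0.0172, edgeR). This call was lost without URE GMP replicate 2 (adjusted p = 0.0543), URE GMP replicate 4 (0.0564) or URE LSK replicate 4 (0.0513), and within replicates 2 and 3 (0.117). The URE GMP libraries that were low here are those of the genotype difference in view at the choice. In WT mice the difference was -0.43 ± 0.49 (adjusted p = 0.571), and with the block it was -0.57 (adjusted p = 0.0107, edgeR), below the fold threshold of 1.5.

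*Plxna1* (chr6:89316314-89362620, minus strand), which pairs with neuropilins as a receptor of secreted semaphorins, was weakly expressed and higher in URE mice in each pair of same-numbered libraries. It measured 3.53, 1.14, 1.72 and 3.22 CPM in WT LSKs and 10.7, 2.32, 2.15 and 10.5 CPM in URE LSKs. In GMPs the values were 3.03, 0.415, 0.0489 and 1.30 CPM for WT and 3.47, 1.15, 1.13 and 9.97 CPM for URE mice. The genotypes overlapped in both cell types, and replicates 1 and 4 were higher than replicates 2 and 3 in all groups. The log2 differences were 1.38 ± 0.63 (SE) in LSKs and 1.70 ± 1.02 in GMPs. They were 1.62 and 1.61 within replicates 1 and 4, and 0.61 and 2.22 within replicates 2 and 3. In GMPs the value was 0.67 without URE GMP replicate 4 and 2.75 without WT GMP replicate 1. *Plxna1* shares 970 exonic bases with Gm26811 on the opposite strand, and the libraries do not keep the strand, so that reads of the pair cannot be told apart there. Its GMP versus LSK difference did not pass the test in WT (-1.01 ± 0.85, adjusted p = 0.424) or URE mice (-0.76 ± 0.82, adjusted p = 0.55, edgeR).

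**Figure D2:**
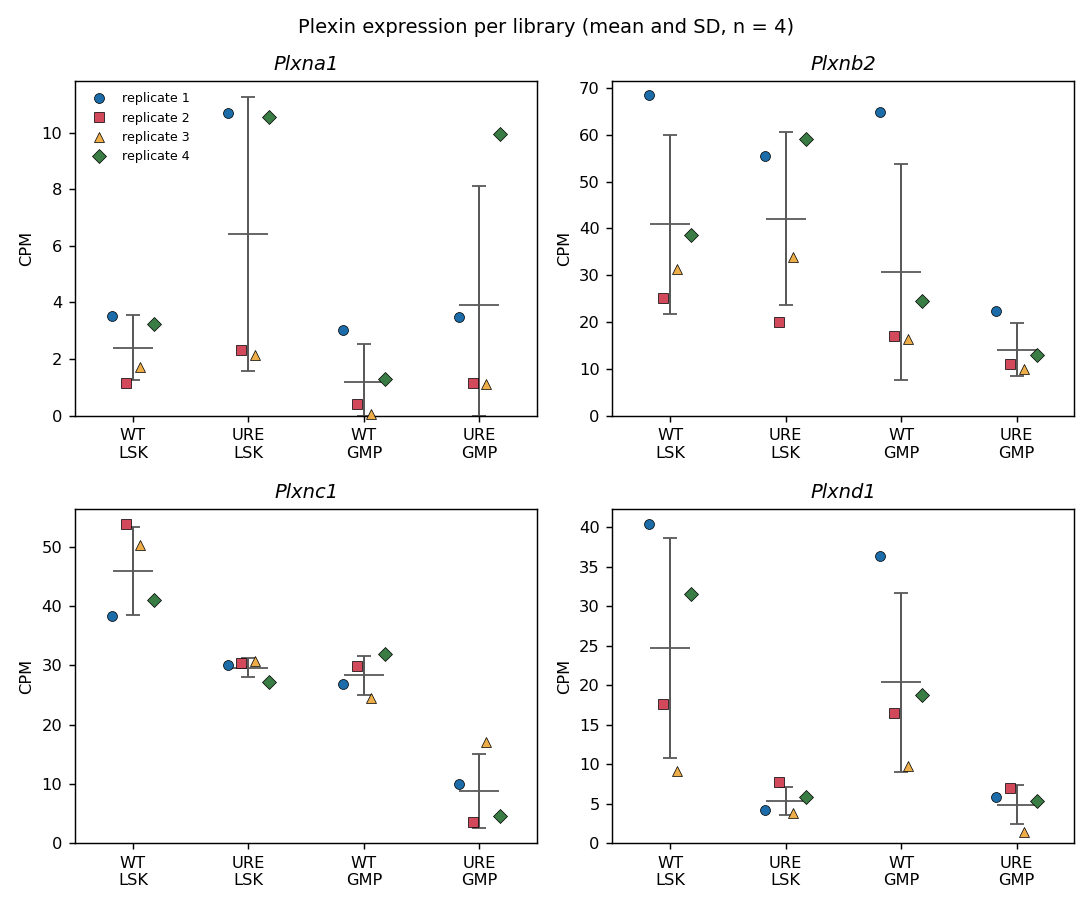
CPM of the 4 plexins (vertical axes, each from 0) in each library of the 4 groups (horizontal axis), with a symbol for each replicate number and bars for the mean and SD (n = 4), cut at 0 where the SD exceeds the mean. *Plxnd1* and *Plxnc1* are lower in every URE library than in any WT library of the same cell type, and *Plxna1* and *Plxnb2* are higher in replicates 1 and 4 than in replicates 2 and 3 in each group.

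*Sema4a* (chr3:88435959-88461182, minus strand) encodes a membrane-bound semaphorin of class 4 that is known from dendritic cells and T cell priming and binds plexin-B receptors and plexin D1. It spanned the widest range of the 10 genes, from 1.05 to 513 CPM. WT LSKs measured 3.62, 2.75, 1.05 and 6.37 CPM and URE LSKs 14.0, 5.67, 9.56 and 16.3 CPM. WT GMPs measured 44.5, 9.10, 4.69 and 25.2 CPM and URE GMPs 504, 218, 51.3 and 513 CPM. Every URE GMP library was above every WT GMP library, and in LSKs the lowest URE library was just below the highest WT library. The log2 difference was 3.94 ± 0.88 (SE) in GMPs, a 15.3-fold higher level in URE, and 1.70 ± 0.52 in LSKs, a 3.25-fold higher level. Within replicates 1 and 4 and within replicates 2 and 3 it was 3.85 and 4.24 in GMPs and 1.58 and 1.97 in LSKs. The genotype difference was larger in GMPs than in LSKs by 2.22 ± 1.02 (SE, log2).

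Between cell types, *Sema4a* was higher in GMPs of both genotypes. The URE GMP libraries that were high here are those of the genotype difference in view at the choice. The log2 difference was 4.77 ± 0.71 in URE mice (27.2-fold, adjusted p = 0.00174) and 2.59 ± 0.75 in WT mice (6.01-fold, adjusted p = 0.0296, edgeR for both), and GMPs were above LSKs in 4 of 4 same-numbered pairs of each genotype. In URE mice the groups did not overlap and the call held without any single library. In WT mice it was lost without WT GMP replicate 1 (adjusted p = 0.059), WT GMP replicate 4 (0.0645), WT LSK replicate 1 (0.0672), WT LSK replicate 2 (0.0756) or WT LSK replicate 3 (0.0563), and within replicates 2 and 3 (0.0829).

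Of the 4 RefSeq promoter entries of *Sema4a*, 2 held the letters GAGGAA. The surrounding 30 bases are shown because the gene had the widest range, on the minus strand of GRCm38.p6 at chr3:88459161-88459190 and chr3:88461394-88461423, with GAGGAA in capitals.
Sema4a, first: acaggagaggagGAGGAAgaatatggggag
Sema4a, second: tcctcatggagtGAGGAAcaggacaggcag
The first lies before the start of an inner transcript and the second before that of the outermost one, whose entry holds a further match.

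*Sema4b* (chr7:80186841-80226527, plus strand), another membrane-bound class 4 semaphorin, went the other way. It measured 7.92, 6.88, 17.1 and 6.89 CPM in WT LSKs and 2.77, 2.68, 5.35 and 4.47 CPM in URE LSKs. In GMPs the values were 4.03, 2.70, 7.04 and 4.77 CPM in WT and 0.820, 1.25, 4.0 and 1.75 CPM in URE mice. All URE LSK libraries were below all WT LSK libraries, and in GMPs each URE library was below the WT library of its number while the groups overlapped. The log2 difference was -1.39 ± 0.41 (SE) in LSKs and -1.25 ± 0.53 in GMPs. Within replicates 1 and 4 it was -1.06 and -1.80, and within replicates 2 and 3 -1.63 and -0.90. It was -0.92 in LSKs without WT LSK replicate 3, and -1.90 in GMPs without URE GMP replicate 3. Its GMP versus LSK difference was -1.08 ± 0.41 in WT mice (adjusted p = 0.0782) and -1.0 ± 0.53 in URE mice (adjusted p = 0.218), and neither passed the test over all libraries, with lower levels in GMPs in 4 of 4 pairs each. Both passed with the replicate number as a block (adjusted p = 0.00224 in WT and 0.0328 in URE mice), the difference in WT mice also without WT GMP replicate 3 (0.0474), and that in URE mice also without URE GMP replicate 3 (0.0382, edgeR for all).

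*Sema4d* (CD100; chr13:51685529-51793747, minus strand), which binds plexin-B receptors and, on lymphocytes, CD72, had the highest mean level per kilobase of the 10 genes in WT LSKs and differed little with genotype. It measured 105, 33.5, 21.4 and 74.9 CPM in WT LSKs, 85.8, 29.9, 22.5 and 73.5 CPM in URE LSKs, 83.7, 23.7, 15.6 and 48.9 CPM in WT GMPs and 65.1, 21, 29.1 and 55.3 CPM in URE GMPs. Replicates 1 and 4 were above replicates 2 and 3 in each group, and every pair of groups overlapped. The log2 genotype difference was -0.18 ± 0.56 (SE) in LSKs and -0.01 ± 0.54 in GMPs. Within replicates 1 and 4 it was -0.20 and -0.15, and within replicates 2 and 3 -0.089 and 0.33. The cell type difference was -0.46 ± 0.61 in WT mice (adjusted p = 0.628) and -0.36 ± 0.50 in URE mice (adjusted p = 0.655, edgeR). *Sema4d* was lower in GMPs in 4 of 4 same-numbered pairs of WT mice, and the fit that takes the number as a block gave -0.48 with an adjusted p of 0.00308 (edgeR), at a fold below the threshold of 1.5.

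*Sema7a* (chr9:57940112-57962865, plus strand), the membrane-anchored ligand of plexin C1, was near the limit of detection. LSKs held 4 to 24 counts in WT and 7 to 36 counts in URE mice, or 0.156 to 0.967 and 0.232 to 1.40 CPM. GMPs held 14, 0, 0 and 2 counts in WT and 0, 0, 0 and 2 counts in URE mice. At a count of 0, up to 3 counts remain possible, and this limit covers counting error only. Within a cell type *Sema7a* passed the filter on low counts in LSKs alone, where the log2 genotype difference was 0.59 ± 0.67 (SE), with 0.53 in replicates 1 and 4, and the groups overlapped. Over all 16 libraries the genotype difference in GMPs minus that in LSKs was -3.16 ± 1.69 (SE), and it was -0.88 without WT GMP replicate 1, which held 14 counts, and -5.78 without URE GMP replicate 4, the other extreme. In the URE mice its URE LSK libraries were all above the URE GMP libraries.

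**Figure D3:**
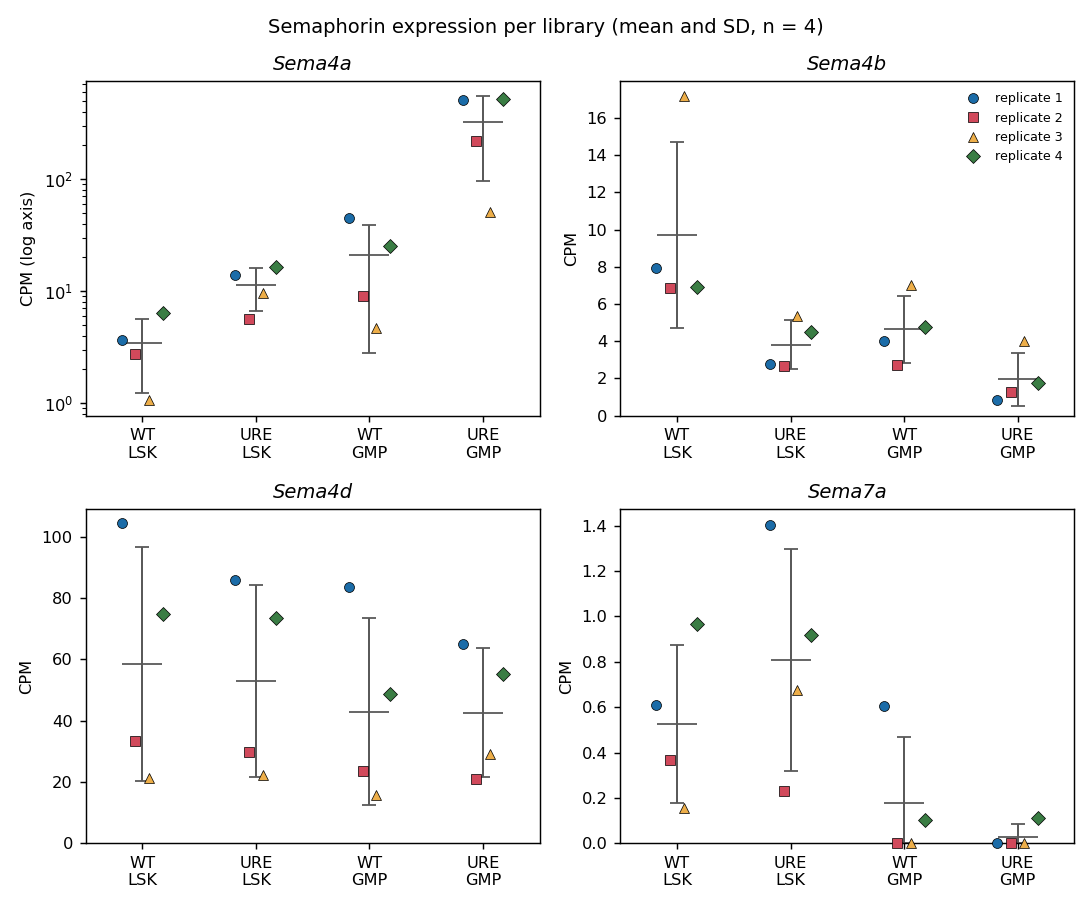
CPM of the 4 semaphorins (vertical axes, with a log axis for *Sema4a* and axes from 0 for the others) in each library of the 4 groups (horizontal axis), with a symbol for each replicate number and bars for the mean and SD (n = 4), cut at 0 where the SD exceeds the mean. *Sema4a* reaches 51.3 to 513 CPM in URE GMPs against 4.69 to 44.5 CPM in WT GMPs, and *Sema4d* is higher in replicates 1 and 4 than in replicates 2 and 3 in all groups.

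Levels were compared between the genes as mean CPM per kilobase of exon. In WT LSKs *Sema4d* (7.63 ± 4.98, SD), *Plxnc1* (5.49 ± 0.89) and *Plxnb2* (5.30 ± 2.48) were the highest, *Nrp1* (0.210 ± 0.074) was in the eighth place and *Nrp2* (0.069 ± 0.023) was last. No neighbours in this order were further apart than the sum of their SDs. In WT GMPs *Nrp1* had 2.16 ± 0.64, above *Sema4b* (0.821 ± 0.322) beyond the spread, while the 5 genes above *Nrp1* did not separate from their neighbours. In URE LSKs *Nrp1* had 1.57 ± 1.24, between *Sema4a* (2.11 ± 0.87) and *Plxnd1* (0.740 ± 0.245) and separate from neither. In URE GMPs *Sema4a* was first with 59.4 ± 41.9 and *Sema4d* followed with 5.55 ± 2.73, each further from the next gene than the sum of the SDs.

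As a description, with both thresholds applied (adjusted p below 0.05, fold above 1.5), 2 of the 10 genes were called in LSKs (*Nrp1* higher, *Plxnd1* lower in URE), where 6.14% of all 15154 genes tested were called (2.38% higher and 3.76% lower). In GMPs 8 of the 10 genes passed the filter on low counts and 3 were called (*Sema4a* higher, *Nrp1* and *Plxnd1* lower), against 8.30% of 13829 genes (4.67% higher and 3.63% lower). With the replicate number as a block, 5 genes were called in LSKs, with *Plxnc1*, *Sema4a* and *Sema4b* added, against 9.46% of all genes, and 6 in GMPs, with *Plxnb2*, *Plxnc1* and *Sema4b* added, against 16.3%. The groups did not overlap for 4 of 10 genes in LSKs and 4 of 8 in GMPs, against 12.6% and 14.8% of all genes. The median log2 difference of the genes tested was 0.09 in LSKs and -1.19 in GMPs, and that of all genes was 0.00093 and 0.0052. Since these contrasts were in view when the genes were chosen, nothing is read from their share, nor from the counts without single libraries.

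These counts depended on single libraries. In LSKs no member was called by edgeR without URE LSK replicate 1 or 4 or without WT LSK replicate 1 or 4. In that cell type 1 was called without URE LSK replicate 3, WT LSK replicate 2 or WT LSK replicate 3. In GMPs no member was called without URE GMP replicate 1 or 4 or without WT GMP replicate 2 or 4. There, 1 was called without WT GMP replicate 1, and 5 were called without URE GMP replicate 3. The shares of all genes called without single libraries are not given here, and nothing is read from these counts. Over all libraries DESeq2 called 5 members in each cell type, against 7.99% of 20418 genes in LSKs and 10.8% of 18519 genes in GMPs. In GMPs these included *Nrp2*, which the filter of the main test had left out. The log2 differences of the members called kept their sign without any single library, with ranges in LSKs of 2.30 to 3.21 for *Nrp1* and -2.47 to -1.86 for *Plxnd1*, and in GMPs of 3.59 to 4.64 for *Sema4a*, -1.89 to -1.37 for *Nrp1* and -2.30 to -1.62 for *Plxnd1*.

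**Figure D4:**
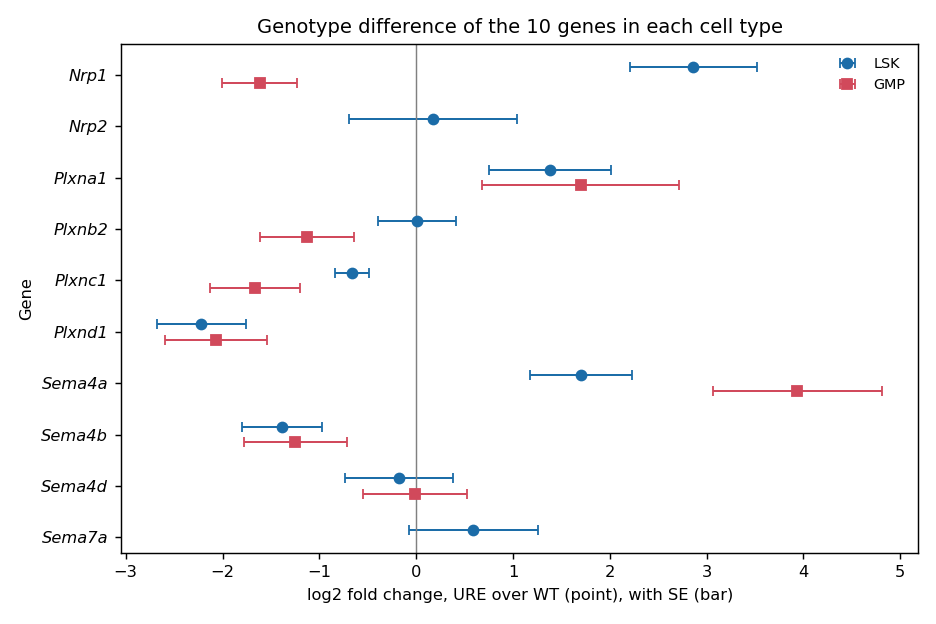
Log2 fold change of URE over WT (horizontal axis, with the SE as a bar) for each gene (vertical axis) in LSKs and in GMPs, 4 libraries per group. *Nrp1* lies at 2.86 in LSKs and at -1.62 in GMPs, *Plxnd1* is below 0 and *Sema4a* above 0 in both, and *Nrp2* and *Sema7a* have no GMP value because they did not pass the filter on low counts.

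For the cell type contrasts, 3 of 9 genes tested were called in WT mice (*Sema4a* and, counted as a description only, *Nrp1* higher, *Plxnc1* lower in GMPs), against 27.3% of 14767 genes (11.5% higher and 15.8% lower). In URE mice 3 of 8 were called (*Sema4a* higher, *Plxnb2* and *Plxnc1* lower in GMPs), against 21.8% of 14395 genes (9.20% higher and 12.6% lower). Nothing is read from shares of so few genes. With the replicate block 4 of the genes were called in each genotype, against 40.9% of all genes in WT and 31.9% in URE mice. The groups did not overlap for 2 of the genes tested in each genotype, against 31.4% of all genes in WT and 26.6% in URE mice. Counted on the difference between the genotype effects in GMPs and LSKs, 1 of 10 genes passed an adjusted p of 0.05 (*Nrp1*), against 1.22% of 15935 genes (0.866% higher and 0.351% lower). *Nrp1* was chosen for this difference, so nothing is read from that count. For the genes other than *Nrp1*, *Sema4a* and *Sema7a* the difference lay between -2.34 (*Nrp2*) and 0.29 (*Plxna1*). The number called between cell types in WT mice fell to 1 without WT LSK replicate 2 and that in URE mice grew to 5 without URE GMP replicate 3. The shares of all genes without these libraries are not given, and nothing is read from the change. The genotype and cell type contrasts share libraries with each other.

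**Figure D5:**
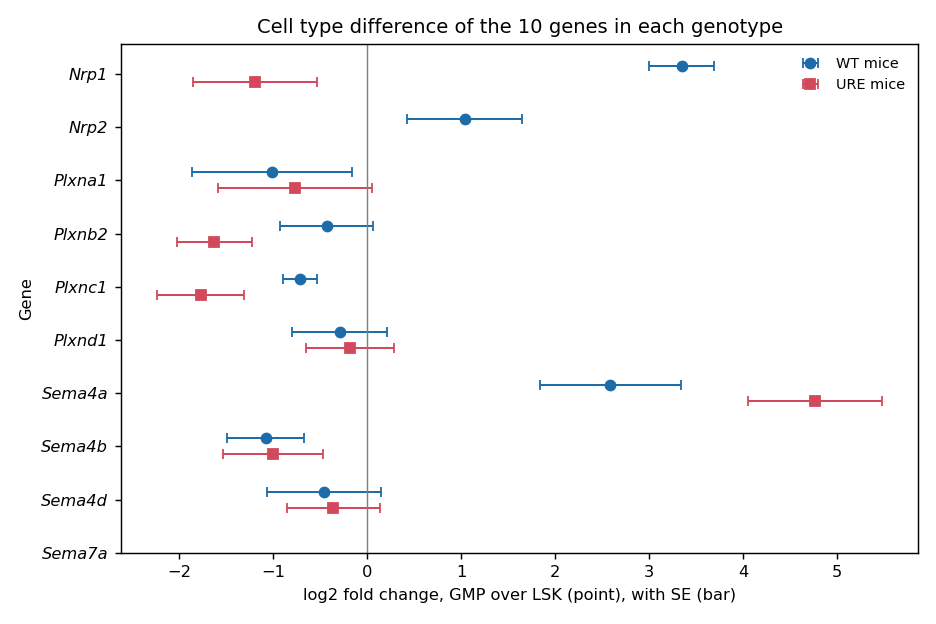
Log2 fold change of GMP over LSK (horizontal axis, with the SE as a bar) for each gene (vertical axis) in WT and in URE mice, 4 libraries per group. *Sema4a* is above 0 and *Plxnc1* below 0 in both genotypes, *Nrp1* lies at 3.35 in WT and at -1.19 in URE mice, and genes without a point did not pass the filter on low counts.

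The other 21 genes of the families were mostly low, and 10 of them passed the filter in LSKs. Among these, 3 were called in URE LSKs by edgeR's quasi-likelihood test, where 6.14% of all genes were called. Nothing is read from that number, since *Sema3e* and *Sema3d* passed the filter through 1 genotype, as given below. *Sema3e*, the secreted ligand of plexin D1, measured 0.032, 0.134, 0.039 and 0.121 CPM in WT LSKs (1 to 4 counts) and 1.87, 3.15, 3.88 and 2.34 CPM in URE LSKs (log2 difference 5.01 ± 0.57, SE, adjusted p = 0.000983). It rose in the cells in which *Plxnd1* was lower. *Plxna4*, a receptor that works with *Nrp1*, measured 1.96, 1.68, 1.76 and 1.45 CPM in WT LSKs and 4.56, 4.01, 6.87 and 5.06 CPM in URE LSKs (1.55 ± 0.31, adjusted p = 0.0172). *Sema3d*, a secreted ligand of neuropilins, fell from 27.5, 43.8, 28.7 and 8.83 CPM in WT LSKs to 1.25, 1.03, 0 and 0 CPM in URE LSKs (-5.58 ± 1.11, adjusted p = 0.0172). *Sema3e* passed the filter on low counts through its URE libraries and *Sema3d* through its WT libraries, which leaves 1 direction open for a call, and their log2 values rest on few counts in the lower group (0 to 32 for *Sema3d* in URE LSKs). Within replicates 1 and 4 alone the difference of *Sema3e* in LSKs was called (4.74, adjusted p = 0.0195, edgeR). Those of *Plxna4* (1.46, adjusted p = 0.0899) and *Sema3d* (-4.88, adjusted p = 0.0705, edgeR for both) were not called there.

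In GMPs only 4 of the 21 genes passed the filter and edgeR called 0 of them. Of these, 2 had an unadjusted p under 0.05, as had 2808 of all 13829 genes. DESeq2 called 3 of the 21, against 10.8% of 18519 genes, and *Plxna2* was called with the replicate block, against 16.3% of all genes. *Sema3e* was at 0 counts in all WT GMP libraries and at 0.313 to 0.820 CPM in URE GMPs. Between cell types, 7 such genes were tested in each genotype and edgeR called 4, all lower in GMPs, against 27.3% of all genes in WT (15.8% lower) and 21.8% in URE mice (12.6% lower). Several of them held few counts in GMPs (5 to 7 for *Plxna4* in WT mice) and passed the filter through their LSK libraries, which leaves only this direction open, so nothing is read from the number. In WT mice these were *Sema3d* (-5.30 ± 0.61, adjusted p = 0.000373), *Plxna4* (-2.62 ± 0.31, 0.000432), *Plxna3* (-2.60 ± 0.57, 0.00895) and *Sema4g* (-2.96 ± 0.89, 0.034). In URE mice they were *Plxna4* (-3.54 ± 0.63, 0.00405), *Sema3e* (-2.34 ± 0.47, 0.00691), *Plxna3* (-2.54 ± 0.57, 0.0115) and *Sema4g* (-1.93 ± 0.53, 0.0274). With the replicate block *Sema4c* was called lower in GMPs as well (-1.81, adjusted p = 0.00312 in WT and -2.42, 0.00155 in URE mice, edgeR).

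Co-receptors, other receptors and VEGF ligands of the system were taken from a list of 16 receptors, 5 ligands and 39 cytoplasmic partners. In LSKs 2 of 11 receptors tested fell in URE mice and 0 rose, where 6.14% of all genes were called. *Tyrobp* (DAP12), a signalling adaptor that plexin A1 can use, measured 16.1 to 37.5 CPM in WT and 2.26 to 3.92 CPM in URE LSKs (-3.04 ± 0.35, adjusted p = 0.000983), and *Ptprc* (CD45) fell by 1.01 ± 0.25 on the log2 scale (adjusted p = 0.0429). Of the VEGF ligands, 1 of 2 tested rose. *Vegfc*, a ligand of *Nrp2* and FLT4, measured 8.46 to 13.2 CPM in WT and 50.3 to 66.8 CPM in URE LSKs (2.39 ± 0.22, adjusted p = 0.000332). Of the cytoplasmic partners, 2 of 36 fell and 0 rose, namely the kinases *Pak1* (-1.10 ± 0.23, adjusted p = 0.0219) and *Fes* (-1.50 ± 0.36, adjusted p = 0.0381, edgeR for all), a share near that of all genes. With the replicate number as a block, *Cd72* (0.74, adjusted p = 0.0227) and *Dpysl2* (0.71, 0.0344) were also called higher and *Rac2* (-0.64, 0.0128) lower in URE LSKs, against 9.46% of all genes.

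In GMPs 3 of 10 receptors rose in URE mice and 1 fell, where 8.30% of all genes were called. Nothing is read from these numbers, since *Mst1r* and *Met* had 1 direction open for a call, as given below. *Cd72*, a receptor of SEMA4D on B cells, measured 27.1 to 40.0 CPM in WT and 164.4 to 209.3 CPM in URE GMPs (2.38 ± 0.18, adjusted p = 0.000283). It shares 1423 exonic bases with *Tesk1* on the opposite strand, which these libraries cannot separate. *Mst1r* (RON), a partner of plexin-B receptors, measured 0.042 to 0.520 CPM in WT and 11.4 to 35.0 CPM in URE GMPs (6.93 ± 0.79, adjusted p = 0.00115), whereas its relative *Met* measured 11.9 to 16.8 CPM in WT and 0.103 to 2.51 CPM in URE GMPs (-4.22 ± 0.82, adjusted p = 0.0125). *Mst1r* held 1 to 12 counts in WT and *Met* 2 to 48 counts in URE GMPs, so that the size of these log2 values rests on few counts, and each passed the filter through its higher group, which left 1 direction open for a call. *Flt1*, a VEGF receptor, rose by 1.45 ± 0.29 (adjusted p = 0.0157). *Vegfc* was 1 of 3 VEGF ligands tested and rose in GMPs too, with 0.674 to 1.32 CPM in WT and 5.54 to 9.55 CPM in URE mice (3.16 ± 0.35, adjusted p = 0.00111). Of 33 cytoplasmic partners, 2 rose, the plexin-binding GTPase *Rnd1* (2.47 ± 0.46, adjusted p = 0.00993) and the exchange factor *Farp1* (2.75 ± 0.61, adjusted p = 0.023, with 7 to 42 counts in WT GMPs), and *Pak1* fell (-1.80 ± 0.18, adjusted p = 0.000612, edgeR for all), again a share near that of all genes. *Farp1* too passed the filter through its URE libraries, which left 1 direction open for a call. With the replicate number as a block, 7 of the 10 receptors and 10 of the 33 partners were called, against 16.3% of all genes. The receptors added were *Itga1* (-2.56, adjusted p = 0.0112), *Ptprc* (-0.78, 0.00793) and *Tyrobp* (-2.20, 0.00207), all lower in URE GMPs, which makes 3 higher and 4 lower. The partners added were *Limk2*, *Mical1*, *Mras* and *Sh3bp1* (0.79, 0.81, 1.56 and 1.14) and, lower in URE GMPs, *Gsk3b*, *Mical3* and *Rnd3* (-0.63, -0.95 and -3.12, adjusted p from 0.00575 to 0.0356 for the 7 genes, edgeR). *Rnd3* held 0 to 11 counts in URE GMPs and passed the filter through its WT libraries. This left 1 direction open for a call, and the size of its log2 value rests on few counts. Nothing is read from the numbers called with the block, which include such genes. The genotype difference itself differed between GMPs and LSKs for *Cd72* (1.63 ± 0.29, adjusted p = 0.0135) and *Rnd1* (4.21 ± 0.93, adjusted p = 0.0386), both more positive in GMPs, where 1.22% of all genes were called. With the block *Mst1r* was called as well. Neither *Cd72* nor *Rnd1* was called within replicates 1 and 4 (adjusted p = 0.0594 and 0.124) or replicates 2 and 3 (0.605 and 0.867, edgeR). A block within each cell type also called *Farp1*, *Itga1*, *Mras*, *Pak1* and *Rac2*, against 538 of all 15935 genes.

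Between cell types, 5 of 12 receptors tested in WT mice were higher in GMPs and 3 were lower, and in URE mice 3 of 11 were higher and 3 lower, against 27.3% and 21.8% of all genes called. The receptors with the smallest adjusted p in WT mice were *Flt1* (4.05 ± 0.36 higher in GMPs, adjusted p = 0.000105), the collagen receptor chain *Itga1* (5.41 ± 0.55, 0.000213), *Met* (2.81 ± 0.30, 0.000282), *Havcr2* (-2.36 ± 0.29, 0.000499) and *Cd72* (-1.38 ± 0.23, 0.00219). *Itga1* shares 685 exonic bases with Gm49395. *Itga1* held 4 to 28 and *Flt1* 7 to 16 counts in WT LSKs. In URE mice they were *Havcr2* (-3.63 ± 0.39, 0.000352), *Flt1* (3.93 ± 0.48, 0.000695), *Mst1r* (5.31 ± 0.81, 0.0019) and *Tyrobp* (3.15 ± 0.53, 0.003), with 1 to 35 counts of *Mst1r* in URE LSKs. *Vegfc* was lower in GMPs of both genotypes (-3.67 ± 0.33, 0.000117 in WT and -2.95 ± 0.23, 8.6e-05 in URE mice). Of the cytoplasmic partners, 1 of 35 was higher and 7 were lower in WT GMPs, among them *Rras2* (-2.02 ± 0.32, 0.00197) and *Arhgef12* (-2.62 ± 0.44, 0.00245), and 3 of 34 were higher and 8 lower in URE GMPs, among them *Rnd1* (4.20 ± 0.84, 0.007), *Rock2* (-1.23 ± 0.28, 0.0133) and *Rhod* (-3.75 ± 0.88, 0.0144, adjusted p by edgeR throughout). *Rnd1* held 0 to 13 counts in URE LSKs and *Rhod* 0 to 6 counts in URE GMPs. Genes this low in 1 group (*Itga1*, *Flt1* in WT mice, *Mst1r*, *Rnd1* and *Rhod*) passed the filter through the other group, which left 1 direction open for a call, and the size of their log2 values rests on few counts. Nothing is therefore read from the numbers of receptors and partners called. With the replicate block 17 partners were called in WT and 16 in URE mice, against 40.9% and 31.9% of all genes. The number of receptors called with the block was, within each genotype, the same as without it.

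The 7 markers of LSKs summed to 1926 to 3181 CPM in WT and 1961 to 2878 CPM in URE LSKs, and the 6 markers of GMPs to 55726 to 71225 CPM in WT and 73841 to 160578 CPM in URE GMPs. Among them *Meis1* was lower in every URE LSK library (280.05 to 460.01 CPM) than in any WT LSK library (563.3 to 644.6 CPM). *Mpo* made up most of the GMP sum and was higher in every URE GMP library than in any WT GMP library, as was *Fcgr3*, whereas *Ms4a3* was lower (429.6 to 802.1 CPM in WT and 80.3 to 404.2 CPM in URE GMPs). Markers of other cells moved with genotype in some groups, and their part in the values above was not tested. The summed level of 6 dendritic cell markers was 765.9 to 1502 CPM in WT and 351.2 to 501.4 CPM in URE LSKs, and 295.2 to 396.0 CPM in WT and 72.2 to 96.5 CPM in URE GMPs, with *Siglech* at 3 counts or fewer in the URE groups. Outside URE GMPs most of it was *Flt3*, a receptor that progenitors also carry (mean 753.4 CPM in WT and 241.8 CPM in URE LSKs), and *Cd74*. In URE GMPs *Bst2*, which overlapped between the genotypes, was the largest part (mean 55.7 CPM, against 19.4 for *Flt3* and 5.95 for *Cd74*). *Ccr9* went the other way and was higher in every URE GMP library (0.313 to 4.97 CPM) than in any WT GMP library (0.042 to 0.259 CPM). That of 4 basophil and mast cell markers was 21.9 to 42.5 CPM in WT and 87.5 to 157.2 CPM in URE LSKs, and 566.5 to 1149 and 837.5 to 2319 CPM in GMPs. In LSKs *Cpa3* and *Mcpt8* were higher in every URE library than in any WT library, while *Prss34* and *Fcer1a* overlapped. In GMPs *Mcpt8* was again higher, whereas *Prss34* was lower, at 124.2 to 249.5 CPM in WT and 13.1 to 54.6 CPM in URE mice. That of 5 monocyte markers was 52.0 to 101.9 CPM in WT and 12.8 to 27.8 CPM in URE LSKs, and 734.6 to 1074 and 360.8 to 1428 CPM in GMPs. The overlap in GMPs came from *Ly6c2* (134.8 to 460.01 CPM in WT and 310.9 to 1194 CPM in URE mice), whereas *Csf1r*, *Ly86*, *Irf8* and *Ccr2*, 4 of the 5, were lower in every URE GMP library than in any WT GMP library. The mean levels in WT and URE GMPs were 136.2 and 12.7 CPM for *Csf1r*, 68.1 and 5.83 for *Ly86*, and 273.4 and 49.0 for *Irf8*. *Ccr2* lay at 116.4 to 182.1 CPM in WT and at 14.5 to 59.7 CPM in URE GMPs. For 6 endothelial markers it was 213.7 to 271.8 CPM in WT and 300.7 to 452.5 CPM in URE GMPs, but *Cdh5*, which defines these cells, was at 3 counts or fewer in every GMP library. *Pecam1* (mean 155.3 CPM in WT and 308.1 CPM in URE GMPs) carried the higher sum, while *Tek* (5.28 to 27.3 CPM in WT and 0.225 to 0.769 CPM in URE GMPs) and *Emcn* were lower in every URE GMP library than in any WT GMP library. In LSKs the endothelial sums overlapped (382.6 to 436.1 CPM in WT and 326.3 to 480.5 CPM in URE mice), but *Pecam1*, *Kdr* and *Tek* were lower in every URE LSK library than in any WT LSK library (24.6 to 56.0 and 5.04 to 9.52 CPM for *Tek*). For 5 T and NK cell markers it was 563.1 to 976.6 CPM in WT and 1353 to 2228 CPM in URE GMPs, with *Cd3e* and *Trac* at 3 counts or fewer. *Nkg7* alone made up nearly all of that sum (mean 804.3 CPM in WT and 1711 CPM in URE GMPs). The 5 erythroid markers (138.6 to 415.9 CPM in WT and 52.9 to 460.1 CPM in URE GMPs) and the 4 megakaryocyte markers (90.7 to 204.8 and 73.8 to 235.2 CPM) overlapped between the genotypes in GMPs. In LSKs the erythroid sums were 28.9 to 40.1 CPM in WT and 15.1 to 91.8 CPM in URE mice, and the megakaryocyte sums 49.3 to 73.9 and 54.6 to 328.6 CPM, with *Itga2b* higher in every URE LSK library (49.6 to 232.8 CPM) than in any WT LSK library (26.2 to 48.5 CPM).

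The genes whose log2 CPM followed *Nrp1* most closely over the 16 libraries were *Rrp1b* (Pearson's r = 0.86), *Pold3* (0.85), *Gart* (0.84), *Lrrc40* (0.83) and 2810004N23Rik (0.83), out of 9076 genes whose log2 CPM averaged 3 or more. The 16 points fall into 4 groups and share their libraries and depths, and the values are a description. *Rrp1b* had 59.7 ± 5.4 CPM (SD, n = 4) in WT LSKs, 88.9 ± 21.05 in URE LSKs, 103.3 ± 24.2 in WT GMPs and 81.0 ± 16.1 in URE GMPs, the same order of the group means as *Nrp1*. By Spearman's correlation 3 of these 5 genes were again among the first 5, and *Lrrc40* and 2810004N23Rik took the places 15 and 247. The other 9 members had an r with *Nrp1* between -0.44 (*Sema4b*) and 0.30 (*Sema4a*).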

How the data were processed

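The authors made unstranded low-input polyA libraries from at most 10 ng of RNA, quantified the reads with salmon on GRCm38 and summed transcripts to genes with tximport. They deposited the estimated counts as whole numbers without normalization, in 1 table of 54347 genes and 16 libraries. The salmon version is not given in the sources used here. Coordinates, exon lengths and overlaps come from GENCODE M21, which holds 54094 of the gene identifiers. Promoter sequences come from RefSeq.

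The 10 genes, the gene lists and the rules below were chosen with earlier results of these data known. Counts were normalized by TMM and filtered by filterByExpr, and groups were compared with edgeR 4.0.16 (limma 3.58.1, R 4.3.3) by the quasi-likelihood test over all genes with Benjamini-Hochberg adjustment. A call needed an adjusted p below 0.05 and more than a 1.5-fold difference, as in the study's methods, and for the interaction the adjusted p alone. The study tested with DESeq2 (here 1.42.0), which is an alternative here. Each SE is the log2 difference divided by the root of its F statistic. CPM used TMM library sizes over all libraries, and levels were compared between genes per kilobase of exon. Likeness to *Nrp1* was Pearson's r of log2 CPM with a prior count of 2.

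The text gives the values of all 10 genes, the tests of the cell type difference for those that passed the filter on low counts (other than *Nrp1*), other family genes called (at most 8 per comparison by absolute log2 fold change), partner genes called (at most 8 by adjusted p), *Spi1*, the sums of the marker lists with *Kit*, *Ly6a*, *Fcgr3* and *Mpo*, genes at or under 3 counts among the markers, and the 5 genes most like *Nrp1*. *Plxna2*, *Sema4c*, the partner genes called only with the replicate block and single markers of other cell types were named after their values were seen. The B cell marker list is not reported here.

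Replicate numbers come from the labels, and each group is 4 mice. Deviations of same-numbered libraries from their group means correlated in every pair (r from 0.24 to 0.71), so the numbers were taken to pair the samples, and the fit with the number as a block is given where it changes a call (by counts for partners between cell types). No replicates agreed within sampling noise (chi-square per degree of freedom of at least 32.4). Other alternatives were DESeq2 size factors, no filter, 1 fit of all libraries, replicates 1 and 4 or 2 and 3 alone, no fold threshold, and leaving out each library in turn. A block within each cell type was added after seeing the data. The procedure was tested on simulated independent counts with planted changes and no effect of the replicate number. That test does not cover the likeness of same-numbered libraries seen here. Plots were drawn with matplotlib 3.10.9. Counts carry counting error, and without molecular identifiers reads are not independent molecules.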

Additional observations from a re-analysis of the deposited data

Results flagged for a closer look

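In 4 of the 40 groups of 4 libraries examined (10 genes by 4 groups), a single library lay far from the other 3, by Dixon's criterion at 95%. For independent, normally distributed values chance gives about 1 in 20 such groups, or 2 of 40. The groups share libraries and CPM values need not be normal, so nothing is read from the number. A lone value above 0 beside values of 0, as for *Sema7a* below, always meets the criterion. *Plxnb2* measured 64.8 CPM in WT GMP replicate 1, against 16.3 to 24.4 CPM in the others. *Plxnc1* measured 27.2 CPM in URE LSK replicate 4, against 30.1 to 30.7 CPM, a small gap in a narrow group. *Sema4b* measured 17.1 CPM in WT LSK replicate 3, against 6.88 to 7.92 CPM. *Sema7a* measured 0.113 CPM in URE GMP replicate 4, which is 2 counts, against 0 in the others.

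The genotype effect on *Nrp1* in GMPs minus that in LSKs was -4.50 on the log2 scale, with every URE library above WT in LSKs and below WT in GMPs. *Nrp1* was chosen for this difference.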

How the results depend on the processing

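Over the planned and added settings, 715 log2 differences of the 10 genes kept their sign and their side of the threshold or moved by less than the spread between replicates, 17 lost and 4 gained a call, and the others moved further or changed sign. Of all 753 values 52 had another sign than in the fit reported, none of them a difference that was called. In all but 2 of these the reported log2 difference was 0.36 or less in size. The 2 were *Nrp1* in GMPs versus LSKs of URE mice (-1.19, and 0.14 in replicates 2 and 3) and *Nrp2* in GMPs versus LSKs of WT mice (1.04). Some of the small ones went far the other way: *Nrp2* in LSKs from 0.18 to -0.54 with the block and -0.66 without URE LSK replicate 1, *Sema4d* in GMPs from -0.01 to 0.54 without WT GMP replicate 1, and the interaction of *Sema4b* from 0.10 to -0.75 in replicates 1 and 4 and of *Plxna1* from 0.29 to -0.75 without URE GMP replicate 4. Among the cell type differences *Nrp2* in GMPs versus LSKs of WT mice was -0.019 in replicates 2 and 3, *Plxnd1* was 0.049 there, and *Plxnd1* in URE mice was 0.17 in replicates 1 and 4. Without single libraries *Plxnd1* ranged from -0.68 to 0.056 in WT mice and from -0.38 to 0.14 in URE mice, and *Sema4d* in URE mice from -0.63 to 0.013.

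Among the genes called, replicates 2 and 3 alone, with fewer samples, gave 0 for URE versus WT in LSKs (4 with an unadjusted p under 0.05) and 0 in GMPs (2 such), 1 for GMP versus LSK in WT mice, 1 in URE mice and 0 for the interaction (2 such), by edgeR. Over all genes these replicates called 386 of 15682, 108 of 14222, 2507 of 15290, 810 of 14715 and 2 of 16307 genes, in the same order. Of all genes tested in these replicates, 1600 in LSKs, 1763 in GMPs and 764 for the interaction had an unadjusted p under 0.05 (edgeR). Nothing is read from the counts of the 10 genes. Replicates 1 and 4 alone gave 5 in GMPs, against 1236 of 14015 genes, and 5 for GMP versus LSK in URE mice, against 4222 of 14716 genes. DESeq2 gave 5 in LSKs and 5 in GMPs, and the replicate block 5 and 6, with the shares of all genes given above. The block changed no other count over the 10 genes by more than 1.5 times. With a block within each cell type, added after seeing the data, 2 genes passed the interaction (*Nrp1* and *Sema4a*), against 538 of all 15935 genes. Nothing is read from that count. Leaving out single libraries gave 0 to 2 genes called in LSKs, 0 to 5 in GMPs, 1 to 4 for GMP versus LSK in WT mice, 2 to 5 in URE mice and 1 for the interaction each time. The shares of all genes in these fits are not given, and nothing is read from the counts. Other causes of these differences were not tested. Few counts limit the values of *Sema7a* in GMPs and of *Nrp2*, and the part of depth in this was not tested. Of the 5 genes most like *Nrp1*, 3 were kept by Spearman's correlation and 4 with a lower limit on the mean level.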
